A study of Caenorhabditis elegans with 12 samples.

Results

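Transcripts of the voltage-gated calcium channels and of the sodium leak channel complex were examined in BAG neurons, the ciliated head neurons of *C. elegans* that respond to CO2. The genes were chosen by name, and 8 of the 9 names given were found among the gene symbols of the 46766 annotated genes: the calcium channel genes *egl-19*, *unc-2*, *cca-1*, *unc-36* and *ccb-1*, and the leak channel genes *nca-2*, *unc-79* and *unc-80*. The ninth, *nca-1*, was listed under its other symbol, *unc-77* (sequence name C11D2.6). It is described beside the 8 members and left out of their counts. The control genotype was *npr-1(ad609)*, a mutant of a neuropeptide receptor, sampled as day 1 adults. It was compared with *arcp-1(db1082); npr-1(ad609)* adults of the same age, in which the gene of the ankyrin repeat protein ARCP-1 is mutated as well. Both strains carried the *ynIs64* transgene (*flp-17p::gfp*) used to sort BAG, and both were grown at 20 degrees on *E. coli* OP50. Each genotype had 6 libraries, each made by Smart-seq2 from on average 4000 sorted cells. The sort gate rests on the *flp-17* promoter, so a library holds whatever passed that gate and not BAG alone.

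Voltage-gated calcium channels open when the membrane depolarizes and let calcium into the cell. The pore is formed by an alpha1 subunit, encoded by *egl-19* (L-type), *unc-2* (the presynaptic type that triggers transmitter release) or *cca-1* (T-type, opened by small depolarizations). The alpha2-delta subunit UNC-36 and the beta subunit CCB-1 help to bring the pore to the membrane and tune its gating. The sodium leak channel conducts a steady inward current that sets the resting potential. Its pore is NCA-1 or NCA-2, relatives of the mammalian channel NALCN, and the large auxiliary proteins UNC-79 and UNC-80 are needed to keep it stable and in place.

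Depth lay between 374550 and 8683395 reads, and 4 of the 12 libraries had fewer than 1000000. Depth here is the sum of reads assigned to genes, recovered from the normalized counts, and not the number of reads sequenced. The mutated gene *arcp-1*, listed as *F34D10.6*, had a log2 fold change of -1.76 (limma adjusted p = 0.0308). *db1082* is a premature stop codon, so its transcript level is only a partial check of the labels. Of the 6 markers used for BAG, *gcy-9*, *gcy-31*, *gcy-33*, *flp-17* and *ets-5* were detected in all 12 libraries, while *flp-10* was near the detection limit and at 0 in 2 of them. Transcripts typical of other cells were abundant as well. The 9 body wall muscle markers summed to between 4740 and 11431 TPM in *arcp-1; npr-1* libraries and between 3670 and 11897 TPM in controls, against 885 to 4482 and 825 to 3929 TPM for the BAG markers. The body wall muscle sum was made mainly by *unc-54*, a muscle myosin, at a mean of 5993 TPM. The 6 hypodermis markers summed to between 4806 and 15845 TPM in *arcp-1; npr-1* libraries and to between 7720 and 26766 TPM in controls. Calcium channels and the leak channel are used by muscle and by most neurons, so the levels below are those of the sorted material, and the part that each cell type had in them was not tested. In such bulk samples, fewer cells of a type and less RNA per cell cannot be told apart.

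Transcripts of most of the channel genes were well detected in both genotypes, and the order of their length-corrected levels was nearly the same in both. The highest mean TPM over the 12 libraries was that of *unc-36*, at 94.1 (range 32.7 to 126), which is above 90.3% of the 12096 genes tested. It was followed by *unc-80* at 63.9 TPM (40.1 to 91.6), *unc-2* at 56.1 TPM (38.2 to 92.0), *ccb-1* at 47.3 TPM (24.7 to 68.3), *unc-79* at 44.0 TPM (26.8 to 59.1) and *egl-19* at 26.99 TPM (18.8 to 42.3). *cca-1* was lower, at 10.3 TPM (4.92 to 20.0). The leak channel pore genes were at the bottom of the order, *nca-2* at 3.38 TPM (0.514 to 7.63) and *unc-77* at 1.46 TPM (0 to 3.51). In the order of TPM, *unc-79* exceeded *egl-19* in 12 of 12 libraries, and *egl-19* exceeded *cca-1* in 12 of 12. The upper neighbours were less clearly ranked. *unc-2* exceeded *ccb-1* in only 7 of 12 libraries and *ccb-1* exceeded *unc-79* in 9 of 12, with mean within-library log2 differences of 0.27 ± 0.44 and 0.06 ± 0.45 (SD, n = 12), no larger than their spread. *nca-2* exceeded *unc-77* in 6 of 6 controls and in 3 of 6 *arcp-1; npr-1* libraries.

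**Figure D1:**
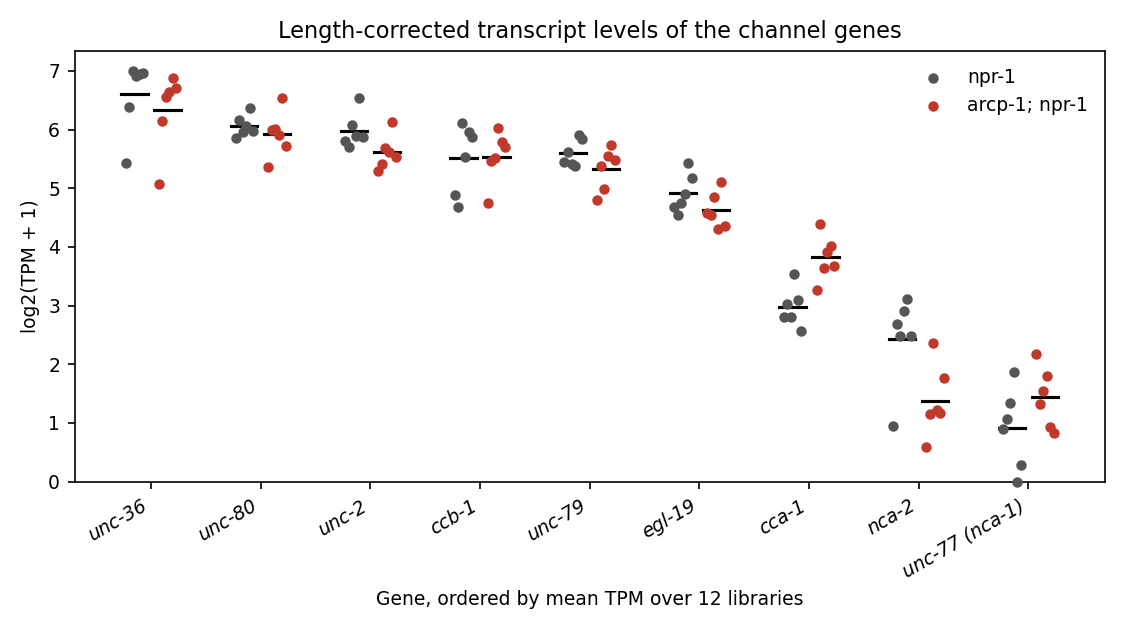
Levels of the 9 channel genes as log2(TPM + 1), genes ordered by mean TPM; each point is 1 of the 6 libraries of a genotype, and the black lines are means. The auxiliary genes *unc-36* and *unc-80* lie at the top, and the leak channel pore genes *nca-2* and *unc-77* lie at the bottom in both genotypes.

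None of the 8 members passed the threshold in the comparison of the genotypes, which tested log2(normalized count + 1) over all genes with limma. Normalized counts are reads divided by a size factor of the library, and SE below is the standard error of a log2 fold change. All 8 members passed the filter on low counts, and 0 of them had an adjusted p under 0.05, beside 1.66% of all genes tested (1.33% higher and 0.331% lower in *arcp-1; npr-1* animals). Without adjustment, 2 of the 8 had a p under 0.05, *cca-1* and *nca-2*, beside 10.4% of all genes. With edgeR on the recovered reads 0 members were called, beside 1.64% of all genes, and with DESeq2 2 were called, again *cca-1* and *nca-2*, beside 3.34% of all genes. The range over the other settings is given in the closing section. By sign alone, 6 of the 8 were lower in *arcp-1; npr-1* animals, beside 52.2% of all genes. Their median log2 fold change was -0.26, beside -0.02 over all genes tested. In 6 of the 8 the estimate was smaller than 0.5 in size, which holds for 61.6% of all genes. No member had libraries of one genotype all above those of the other, a separation seen in 1.95% of all genes.

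**Figure D2:**
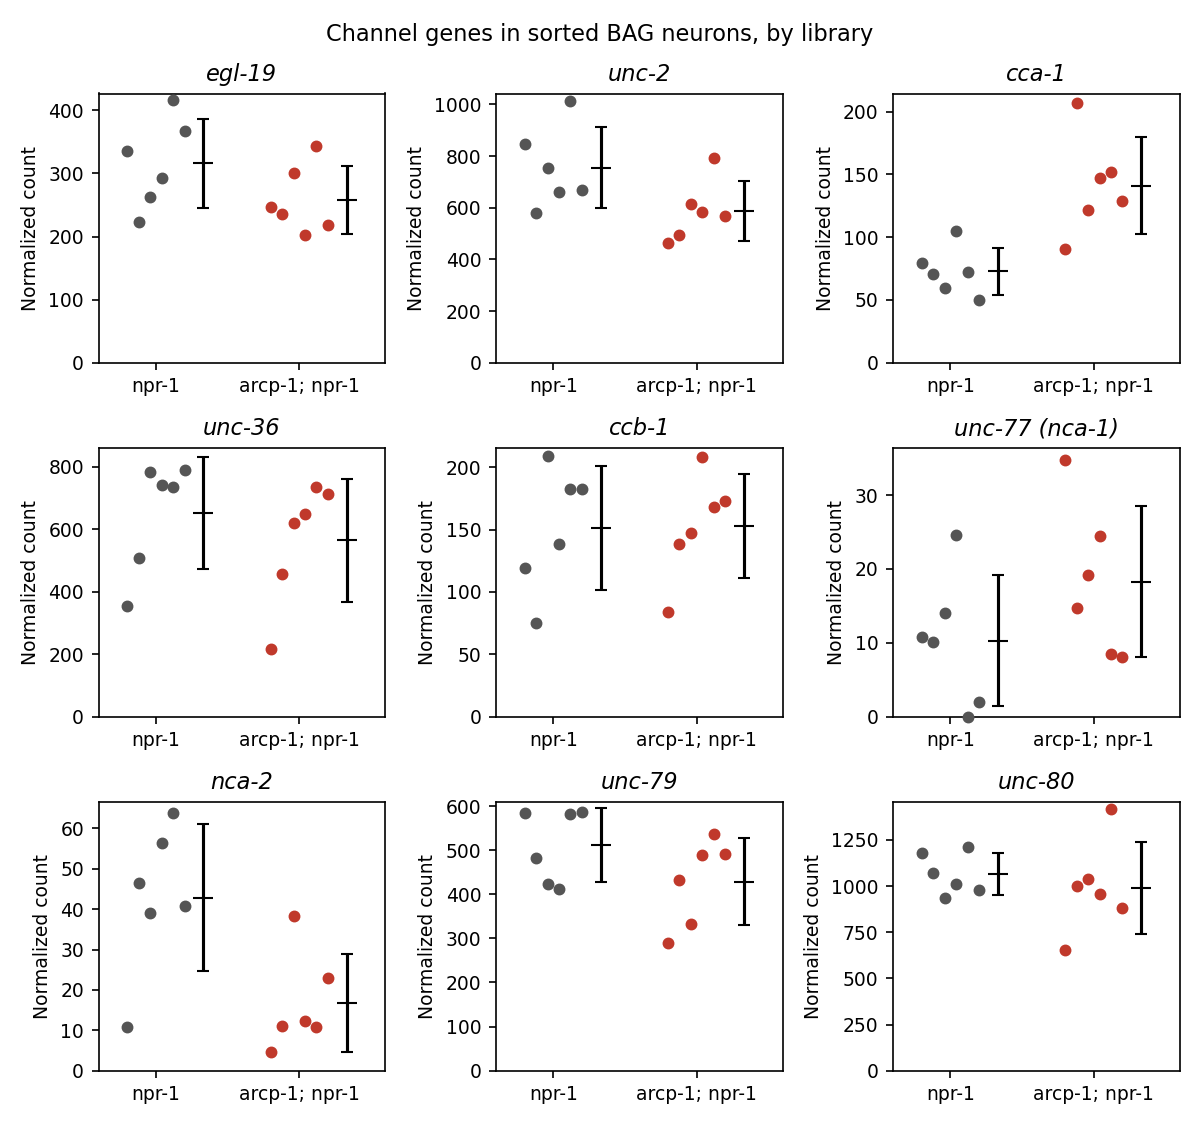
Normalized counts of the 9 channel genes; each point is 1 library (replicates 1 to 6 from left to right), and bars show the mean ± SD of 6 libraries. In *cca-1*, 5 of 6 *arcp-1; npr-1* libraries lie above the highest control, and in *nca-2*, 5 of 6 controls lie above the highest *arcp-1; npr-1* library.

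Among the pore-forming genes, *cca-1* showed the clearest difference. The T-type channel gene (WBGene00000367, chromosome X of the WS255 release, 7847682 to 7875954) had 90.3 normalized counts in the lowest *arcp-1; npr-1* library, a median of 138 and 207 in the highest. In controls it had 49.9 in the lowest library, a median of 71.3 and 105 in the highest. Thus 5 of 6 *arcp-1; npr-1* libraries lay above every control, 5 of 6 controls lay below every *arcp-1; npr-1* library, and the overlap came from *arcp-1; npr-1* replicate 1 and control replicate 4. The means were 141 ± 38.9 and 72.7 ± 19.02 (SD, n = 6 each), and the fitted difference was 1.92-fold (log2 fold change 0.94, SE 0.24). The two-sided exact permutation test of this gene alone gave p = 0.00433. The limma adjusted p over all genes was 0.0624, outside the threshold. The direction was kept under all 22 alternatives, with log2 fold changes from 0.82 to 1.06, and the call was not: without *arcp-1; npr-1* replicate 1 the limma adjusted p was 0.0157, and in the 8 libraries with at least 1000000 reads it was 0.294. The counts were small in shallow libraries, down to 17 reads in control replicate 5. *arcp-1; npr-1* replicate 1 was also the library with the lowest mean of the BAG markers, 7.44 on the log2 scale against 8.14 to 9.65 in the other libraries. With that mean as a covariate, the log2 fold change of *cca-1* was 0.96 (limma adjusted p = 0.0308).

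The other alpha1 genes were more abundant and differed less. *unc-2* (WBGene00006742, chromosome X, 2710918 to 2748114) had 462, 575 and 793 normalized counts in the lowest, median and highest *arcp-1; npr-1* library. In controls the corresponding values were 579, 713 and 1015. The groups overlapped, with 3 of 6 *arcp-1; npr-1* libraries below every control and 2 of 6 controls above every *arcp-1; npr-1* library. The log2 fold change was -0.36 (SE 0.18, limma adjusted p = 0.527). *egl-19* (WBGene00001187, chromosome IV, 7405460 to 7418733) had 202, 241 and 344 normalized counts in *arcp-1; npr-1* libraries and 224, 314 and 416 in controls, again lowest, median and highest. Its log2 fold change was -0.29 (SE 0.19, limma adjusted p = 0.684). *egl-19* is the main calcium channel of worm muscle. The body wall muscle markers had 0 of 9 genes past the threshold, beside 1.66% of all genes tested. By sign, 8 of 9 were lower in *arcp-1; npr-1* libraries, as was *egl-19*, beside 52.2% of all genes. The median log2 fold change of these markers was -0.06. Their part in the *egl-19* level was not tested.

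Expressed as shares of the summed alpha1 TPM of a library, *unc-2* transcripts made up most of the alpha1 pool and *cca-1* the least. In controls, *unc-2* took 63.1 ± 3.37%, *egl-19* 29.7 ± 3.44% and *cca-1* 7.21 ± 2.29% (SD, n = 6). In *arcp-1; npr-1* libraries the shares were 56.3 ± 3.71%, 27.9 ± 3.56% and 15.8 ± 4.39% (SD, n = 6). The *cca-1* share ran from 12.4 to 23.9% in *arcp-1; npr-1* libraries and from 5.05 to 10.9% in controls, so that 6 of 6 lay above every control. The normalized counts of *cca-1* itself overlapped between the genotypes, and separation in normalized counts was seen in 1.95% of all genes. A share also depends on the other alpha1 genes, and *unc-2* and *egl-19* were lower by sign in *arcp-1; npr-1* libraries. The *cca-1* share was looked at after the values of *cca-1* were known and was not tested. The ratio of *egl-19* to *unc-2* within a library differed by 0.08 on the log2 scale (interval of 2 standard errors -0.18 to 0.33, two-sided exact permutation p = 0.552, adjusted p = 0.552 over the 4 ratios compared).

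**Figure D3:**
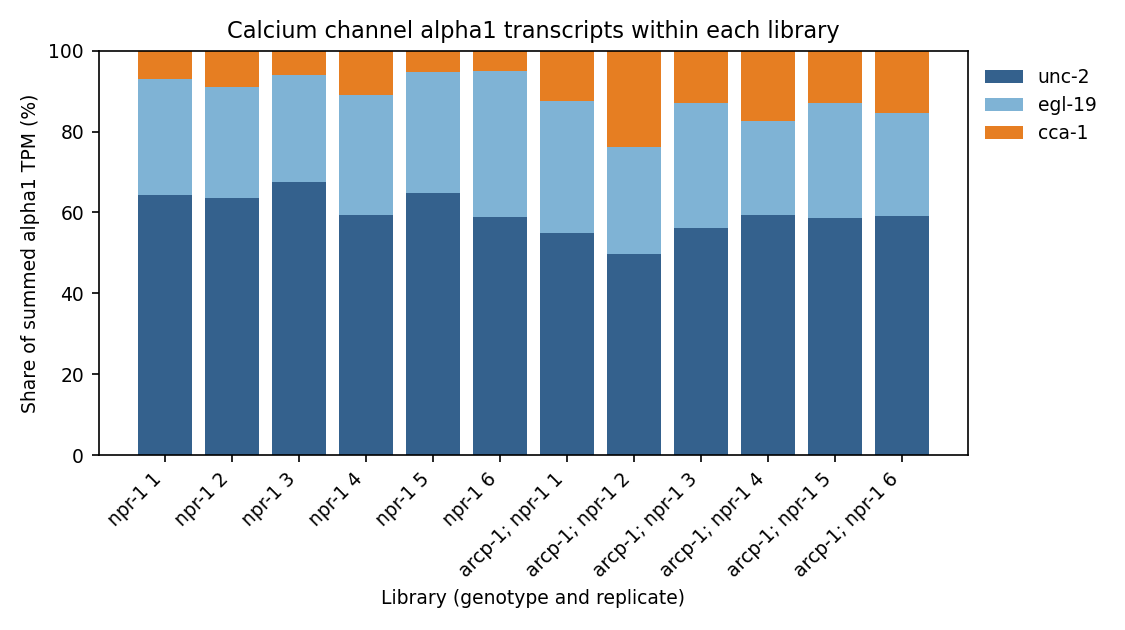
Shares of *unc-2*, *egl-19* and *cca-1* in the summed TPM of the alpha1 genes (%), 1 bar per library. The *cca-1* share is 5.05 to 10.9% in the 6 controls and 12.4 to 23.9% in the 6 *arcp-1; npr-1* libraries.

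The auxiliary calcium channel genes did not pass the threshold, and replicate 1 of each genotype was low in *unc-36*. *unc-36* (WBGene00006772, chromosome III, 8193844 to 8201206) had 216, 635 and 733 normalized counts in the lowest, median and highest *arcp-1; npr-1* library and 354, 738 and 788 in controls. Replicate 1 was the lowest library in each genotype, and all 6 *arcp-1; npr-1* libraries lay below the control median, with 4 of 6 controls above every one of them. Its log2 fold change was -0.26 (SE 0.29, limma adjusted p = 0.837), and without *arcp-1; npr-1* replicate 1 it was 0.00 (limma adjusted p = 0.998). Without control replicate 1, the lowest control, it was -0.42 (limma adjusted p = 0.668). With the replicate number as a block it was -0.26 (SE 0.13, limma adjusted p = 0.445). *ccb-1* (WBGene00000368, chromosome I, 3641668 to 3647009) had 84.1, 158 and 208 normalized counts in *arcp-1; npr-1* libraries and 75.2, 161 and 209 in controls. Its log2 fold change was 0.04 (SE 0.27, limma adjusted p = 0.981), with a sign that depended on the setting. The ratio of *unc-36* to *ccb-1* TPM differed by -0.29 on the log2 scale (interval of 2 standard errors -0.71 to 0.12, two-sided exact permutation p = 0.186, adjusted p = 0.372 over the 4 ratios).

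The library-to-library variation of *unc-36* followed that of the BAG markers. After centring within each genotype, the log2 level of *unc-36* and the mean of the 6 BAG markers had a Pearson r of 0.94 over the 12 libraries (permutation p = 0.00044, adjusted p = 0.00396 over the 9 genes) and a Spearman rho of 0.84 (permutation p = 0.00246, adjusted p = 0.0221). Without the libraries farthest from the median, replicate 1 of each genotype, Pearson r was 0.78. Within the genotypes it was 0.93 in *arcp-1; npr-1* libraries and 0.95 in controls. An r as high was seen in 0.157% of all genes tested, which include *unc-36* itself and the 6 markers that make up the mean. All of these values share the size factor of their library. *ccb-1* had a Pearson r of 0.75 (permutation p = 0.0105, adjusted p = 0.0473) and a Spearman rho of 0.61 (permutation p = 0.0429, adjusted p = 0.129), and Pearson r was 0.60 without those libraries. For the remaining 7 genes Pearson r lay between -0.55 and 0.66, with adjusted permutation p of at least 0.0844. Without those libraries it lay between -0.52 and 0.75, and *unc-2* (0.75) and *egl-19* (0.71) were then close to *unc-36* and above *ccb-1*, while *nca-2* was at 0.05. This relation was examined after the values had been seen, and the difference in r between genes was not tested.

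**Figure D4:**
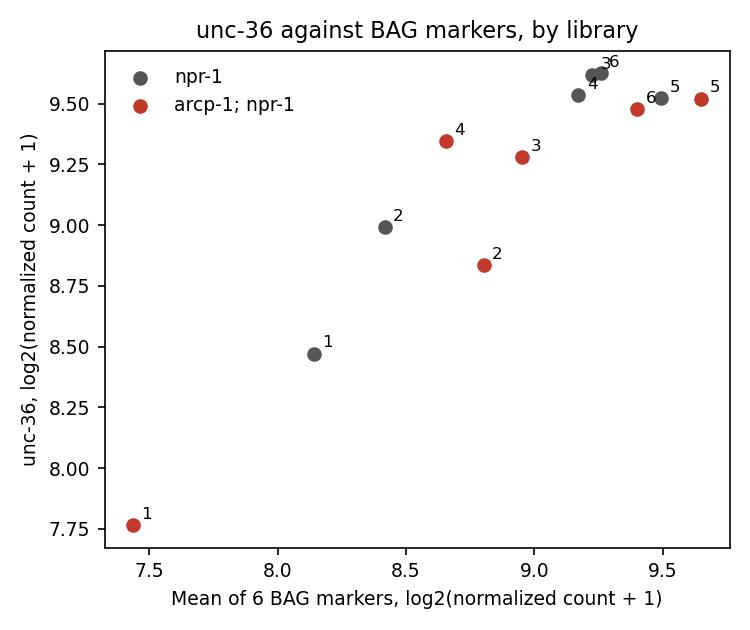
*unc-36* against the mean of the 6 BAG markers, both as log2(normalized count + 1); each point is a library, numbered by replicate. Replicate 1 of *arcp-1; npr-1* is lowest on both axes, with a marker mean of 7.44.

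The pore genes of the sodium leak channel were close to the detection limit, and *nca-2* was lower in *arcp-1; npr-1* libraries without passing the adjusted threshold. *nca-2* (WBGene00003558, chromosome III, 4965571 to 4979729) had 4.71, 11.6 and 38.4 normalized counts in the lowest, median and highest *arcp-1; npr-1* library. Controls had 10.8, 43.6 and 63.7. All 6 *arcp-1; npr-1* libraries lay below the control median and 5 of 6 controls lay above every *arcp-1; npr-1* library. The exception was control replicate 1, where 10.8 normalized counts stood for 3 reads. The means were 16.7 ± 12.2 and 42.9 ± 18.3 (SD, n = 6 each), with a log2 fold change of -1.40 (SE 0.51). The exact permutation test, two-sided, gave p = 0.0281, and the limma adjusted p was 0.269. Under the alternatives the log2 fold change ran from -1.97 to -0.99, and the adjusted p from limma, edgeR or DESeq2 from 0.0261 to 0.453. It was -1.97 (limma adjusted p = 0.0843) in the 8 libraries with at least 1000000 reads, where *nca-2* rested on 15 to 149 reads per library, and -1.75 (limma adjusted p = 0.0638) without control replicate 1. Across all libraries the gene collected 596 reads, between 2 and 149 each.

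*unc-77* (*nca-1*, WBGene00006809, chromosome IV, 6157310 to 6183857) was rarer still, with 310 reads in all. It had 8.06, 16.95 and 34.7 normalized counts in the lowest, median and highest *arcp-1; npr-1* library and 0, 10.4 and 24.6 in controls. Most of its range was shared by the genotypes, and 1 of 6 *arcp-1; npr-1* libraries lay above every control. Its log2 fold change was 1.22 (SE 0.72, limma adjusted p = 0.628), and 0.65 without control replicate 5 (limma adjusted p = 0.781). In control replicate 5 it had 0 reads, and at that depth a count of 0 allows up to 12.7 normalized counts (3 reads), more than the value in 3 of the other controls. Within libraries, the log2 ratio of *unc-77* to *nca-2* TPM was 0.06 ± 0.94 in *arcp-1; npr-1* animals and -1.53 ± 1.05 in controls (SD, n = 6 each). The difference was 1.59 (interval of 2 standard errors 0.43 to 2.74, two-sided exact permutation p = 0.0173). After adjustment over the 4 ratios compared, p was 0.0693 and the difference did not pass the threshold, although 6 of 6 *arcp-1; npr-1* libraries lay above the control median. The size of this difference depended on the pseudocount, from 0.43 with a pseudocount of 10 to 2.66 with 0.1.

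The auxiliary leak channel genes were many times more abundant than the pore genes and differed little between genotypes. The summed TPM of *unc-79* and *unc-80* exceeded that of *unc-77* and *nca-2* in every library, by a factor with a median of 21.5 and a range of 11.6 to 67.0. *unc-80* (WBGene00006812, chromosome V, 20879854 to 20898906) had 653, 978 and 1420 normalized counts in the lowest, median and highest *arcp-1; npr-1* library and 936, 1040 and 1214 in controls. Both extremes were *arcp-1; npr-1* libraries, and the control range fell inside theirs. The log2 fold change was -0.14 (SE 0.18, limma adjusted p = 0.863). *unc-79* (WBGene00006811, chromosome III, 4066717 to 4082794) had 289, 461 and 537 normalized counts in *arcp-1; npr-1* libraries and 412, 532 and 587 in controls, with 3 of 6 controls above every *arcp-1; npr-1* library. Its log2 fold change was -0.27 (SE 0.19, limma adjusted p = 0.695). The log2 ratio of *unc-79* to *unc-80* TPM was -0.60 ± 0.28 in *arcp-1; npr-1* animals and -0.47 ± 0.18 in controls (SD, n = 6 each). The difference of -0.13 had an interval of 2 standard errors from -0.41 to 0.14 (two-sided exact permutation p = 0.359, adjusted p = 0.479 over the 4 ratios).

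**Figure D5:**
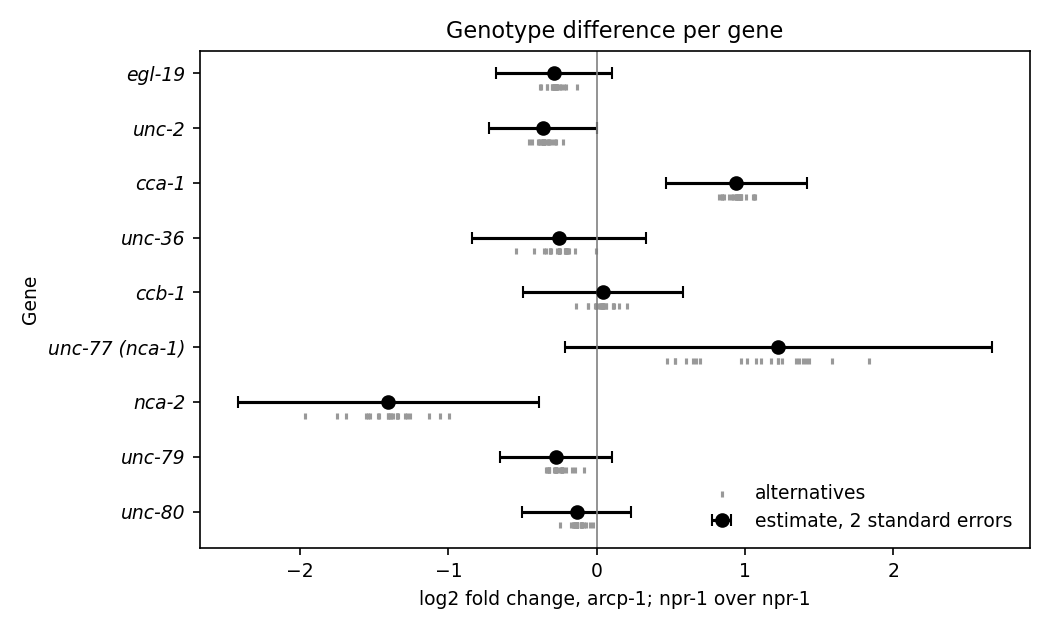
Log2 fold change (*arcp-1; npr-1* over *npr-1*) of each channel gene from limma, with bars of 2 standard errors; gray ticks are the 22 alternative fits. Only *cca-1* at 0.94 and *nca-2* at -1.40 have bars that exclude 0, and neither passed the adjusted threshold.

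Reads of overlapping genes could not be separated, because they were counted without regard to strand. Exons of *unc-36* overlap the protein-coding gene *C50C3.1*, which had a mean of 18.5 normalized counts. Those of *nca-2* and *unc-80* overlap *C27F2.6* and *amx-3*, with means of 1.66 and 1.24. *egl-19*, *unc-2*, *cca-1*, *unc-79* and *unc-77* overlap only noncoding RNA genes, and *ccb-1* overlaps no other exon of the annotation. *nca-2* and *unc-77* encode related proteins, and reads that match both genes may be lost or misassigned.

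Genes that work with these channels were examined in the same way. Of 56 names in 4 lists (channel partners, regulators of the leak channel, calcium stores and pumps, and calcium sensors), 53 were found and 45 were tested. In all, 0 genes were called with limma, edgeR or DESeq2 (DESeq2 gave an adjusted p for 44), and each tool gave 1 gene an unadjusted p under 0.05. Over all genes, limma called 1.66% and gave 10.4% an unadjusted p under 0.05, and a count of 0 among 45 genes is near the former share. Their median log2 fold change was -0.08. Among the channel partners, 0 of 8 genes passed. *calf-1*, whose product carries UNC-2 out of the endoplasmic reticulum, had 376 ± 147 normalized counts in *arcp-1; npr-1* animals and 316 ± 68.5 in controls (SD, n = 6 each). *unc-10*, the active zone protein RIM, had 730 ± 158 and 911 ± 201, and *nlf-1*, which promotes delivery of the leak channel, had 150 ± 35.6 and 172 ± 48.9 (SD, n = 6 each). Their log2 fold changes were 0.13, -0.32 and -0.18 (limma adjusted p from 0.675 to 0.936).

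Regulators of the leak channel were abundant. The Gq alpha gene *egl-30* had a mean of 760 TPM over the 12 libraries, the Go alpha gene *goa-1* 197 TPM and the diacylglycerol kinase gene *dgk-1* 59.6 TPM. Of this list 0 of 5 genes passed, and the log2 fold changes of *egl-30*, *goa-1* and *dgk-1* were 0.04, 0.03 and -0.04. Of the calcium stores, pumps and exchangers, 0 of 16 tested genes passed. The ryanodine receptor gene *unc-68*, which releases calcium from internal stores and is prominent in muscle, had 3729 ± 1093 normalized counts in *arcp-1; npr-1* animals and 2374 ± 695 in controls (SD, n = 6 each), with a log2 fold change of 0.63 (SE 0.27, limma adjusted p = 0.417). It passed the threshold without *arcp-1; npr-1* replicate 1 (log2 fold change 0.85, limma adjusted p = 0.0420) and with the BAG marker mean as a covariate (log2 fold change 0.72, limma adjusted p = 0.0284). The plasma membrane calcium pump gene *mca-2* and the Golgi pump gene *pmr-1* had log2 fold changes of -0.48 and -0.15. Among the calcium sensors and effectors, 0 of 16 tested genes passed. The calmodulin-like gene *cal-4*, the calcineurin gene *tax-6* and the CaM kinase II gene *unc-43* were the most abundant at 295, 290 and 244 TPM, with log2 fold changes of 0.31, -0.14 and -0.15.

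Markers of other cells were compared in the same way, and none of their tested genes passed the threshold, beside 1.66% of all genes tested. In the intestine list 8 of 8 genes, in the germline list 6 of 7 and in the URX, AQR and PQR list 4 of 4 tested genes were lower by sign in *arcp-1; npr-1* libraries. The intestine markers summed to between 141 and 494 TPM in *arcp-1; npr-1* libraries and between 323 and 680 TPM in controls, and the URX, AQR and PQR markers to between 21.0 and 108 and between 75.7 and 118 TPM. The latter sum was carried by *gcy-37*, at a mean of 74.6 TPM, the others being at 0.347 to 4.09 TPM. Those 3 lists thus had the sign of *nca-2*, beside 52.2% of all genes lower by sign. Of the body wall muscle markers 8 of 9 were also lower, as were 5 of 6 cholinergic and 3 of 5 GABA neuron markers. Likewise 4 of 6 BAG and 4 of 6 hypodermis markers were lower by sign. The part of any of these lists in the *nca-2* level was not tested. The markers of pharyngeal muscle, where *cca-1* is also used, summed to between 67.4 and 334 TPM in *arcp-1; npr-1* libraries and between 76.9 and 416 TPM in controls, with 3 of 7 higher and 4 of 7 lower by sign. Their part in the *cca-1* level was not tested. The cholinergic neuron markers summed to between 19.8 and 29.8 and between 22.2 and 40.3 TPM, and the GABA neuron markers to between 80.1 and 347 and between 28.9 and 334 TPM. The GABA neuron sum was carried by *unc-25*, at a mean of 136 TPM, the others being at 1.61 to 7.94 TPM. The markers of AFD, ASE and AWC neurons summed to between 14.5 and 45.3 TPM in *arcp-1; npr-1* libraries and between 8.12 and 32.8 TPM in controls, and 3 of the 4 tested were higher by sign, as was *cca-1*, and their part was not tested. The other 6 genes of that list did not pass the filter on low counts and were at 0 in 5 to 11 of the 12 libraries, *str-2* in 11, *ceh-36* in 10, *srsx-3* in 9 and *gcy-5* in 8.

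For the most abundant alpha1 gene and the most abundant leak channel pore gene, the genes with the most similar pattern across the 12 libraries were found by Pearson r of log2 levels centred within each genotype. For *unc-2* these were *csn-6* (r = 0.87), *nhr-104* (r = 0.87) and *nhr-138* (r = 0.87). For *nca-2* they were *K09D9.1* (r = 0.94), *syx-2* (r = 0.94) and *nhr-11* (r = 0.93). These are the highest values among 12096 genes over only 12 libraries, which share their depth and size factors, and they are given as a description.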

How the data were processed

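The authors filtered ribosomal reads (Bowtie2), trimmed adapters (Trim Galore), aligned to WS255 (STAR, mapping quality set to 20) and counted with HTSeq without strand, as their methods state. The signal table they deposited, of 22542 genes, holds these counts after scaling by DESeq2. A deposited TPM table covers 46766 genes. Another deposited table holds the authors' mean signal per genotype and their own DESeq2 fold changes and p-values; only its symbols and positions were used.

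All values were whole multiples of 1 read (100% within 1e-06), so reads were recovered. Library depth ranged from 374550 to 8683395 reads. Floors (3 reads) cover counting error only, while intervals rest on standard errors from the spread between libraries. No library was a copy of another (chi-square per gene of 5.4 or more within a genotype).

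log2(normalized count + 1) was fitted with limma 3.58.1 in R 4.3.3 (eBayes with trend) over all 12 libraries, for the 12096 genes reaching 1 CPM in at least 6 libraries, with Benjamini-Hochberg adjustment and a threshold of 0.05. Within-library log2((TPM + 1)/(TPM + 1)) ratios and single genes were compared by two-sided exact permutation over 924 assignments (smallest p 0.00216), and correlations by 100000 permutations within genotype. Alternatives were pseudocounts of 0.1 and 10, no filter, TPM, normalized counts for the ratios, edgeR 4.0.16 and DESeq2 1.42.0 on recovered reads, library weights (arrayWeights), the replicate number as a block, the BAG marker mean as a covariate, libraries with at least 1000000 reads, and leaving out each library. The models were tested on simulated data. Genes named were the 9 channel genes, per list any called gene plus the 3 most abundant by mean TPM, and the 3 genes most like *unc-2* and *nca-2*; overlapping genes and markers singled out beyond that were chosen after their values were seen. The members and lists were chosen with earlier results of these data known. Of the loci, 31916 of 46553 compared were identical to the Ensembl annotation of WBcel235, which was used only for exon overlaps; positions are those of the authors' files. The replicates are described as biological in the paper.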

Additional observations from a re-analysis of the deposited data

How the results depend on the processing

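The count of members past the threshold was 0, and it stayed at 0 under 17 of 22 alternatives. It was 2 (*cca-1* and *nca-2*) with DESeq2 and with library weights, 1 (*cca-1*) with the BAG marker mean as a covariate and 1 (*cca-1*) with the replicate number as a block, and between 0 and 1 with a library left out. Over all genes, 201 genes were called. With DESeq2 the count was 404, with library weights 484, with the BAG marker covariate 364, in libraries with at least 1000000 reads 110, and with a library left out between 124 (without *arcp-1; npr-1* replicate 6) and 329 (without *arcp-1; npr-1* replicate 1). For *cca-1*, the adjusted p was 0.0162 with DESeq2, 0.0109 with library weights and 0.048 with the block; for *nca-2*, it was 0.0424 with DESeq2 and 0.0261 with library weights (limma where DESeq2 is not named). *ccb-1* changed sign in 6 of 22 alternatives, to -0.0032 with DESeq2, -0.060 in libraries with at least 1000000 reads and between -0.14 and 0.20 with a library left out. The causes of these changes were not tested. The other members kept their direction throughout. The 4 ratios kept their direction and their side of an unadjusted 0.05 under all 17 alternatives each.

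Across the genotypes, deviations of same-numbered libraries correlated at 0.039 to 0.317, and those of other-numbered libraries at -0.235 to 0.208. In 1 of 6 numbers both libraries correlated best with their own number. Replicate 1 had the lowest BAG marker mean in both genotypes, 7.44 in *arcp-1; npr-1* and 8.14 in controls. Whether a replicate number stands for libraries prepared together was not tested. As a block, the number gave 291 called genes in limma; the within-number difference of the ratio of *unc-77* to *nca-2* was 1.59 (exact sign-flip p = 0.0313, the smallest that 6 pairs allow), and the other ratios stayed above 0.05. No other member's call changed with the block. Depth limits the leak channel pore genes most: *nca-2* had at most 3 reads in 2 libraries and *unc-77* in 3.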
